A study of Mus musculus and Homo sapiens with 14 samples.

Results

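The lamin B receptor gene Lbr and 8 other genes of the nuclear lamina were followed across 5 mouse culture conditions. The members are Lbr, the lamin genes Lmna, Lmnb1 and Lmnb2, the LEM-domain genes Emd and Tmpo, the chromatin-binding gene Banf1, and the linker genes Sun1 and Sun2. They were taken by symbol from tables of 35288 mouse gene identifiers, so 9 of 35288. The list was drawn up with results of these same libraries known, so the genes count as selected on measured values; which values is not stated. The differences given for them are therefore descriptions, given without single p-values. Whether they passed the adjusted threshold is stated beside the share of all genes, also as a description.

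The study measured polyadenylated RNA by sequencing in 3 cell lines grown apart or as pairs. Oli-neu cells are murine and of the oligodendrocyte precursor type. MB1 cells came from sonic hedgehog medulloblastomas of Atoh1-cre:SmoM2 mice at postnatal day 12, in which a Cre driven by Atoh1 switches on an activated Smoothened. D341 is a human Group 3 medulloblastoma line and enters here as a partner of Oli-neu. The conditions were Oli-neu alone, Oli-neu with MB1, Oli-neu with D341, MB1 alone and MB1 with Oli-neu, each with 2 biological replicates, which makes 10 mouse libraries. Every culture, alone or paired, was kept in serum-free medium with B-27, N-2, EGF and bFGF, the last pair each at 20 ng/mL. Paired lines were separated by an insert membrane with 0.4 µm pores.

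The values are TPM, the abundance of a gene's transcripts as a part of 1000000 in the library, corrected for length, so levels of different genes in a library can be compared. Read depth is unknown, since TPM keeps none. The Oli-neu and MB1 tables were made separately, and levels of the 2 lines are set side by side with no test. Pseudogenes took 36.0% to 38.2% of TPM in Oli-neu libraries and 25.2% to 26.8% in MB1 libraries. Mitochondrially encoded genes took 1.93% to 4.53% and 5.73% to 9.56%. These shares bear on levels set side by side between the lines. Between 11596 and 12338 genes reached 1 TPM in a library. For Oli-neu, the leading principal component (53.6% of the variance) separated replicate 1 from replicate 2 in all 3 conditions. Among the MB1 libraries, replicate 2 of MB1 alone stood apart, with a score of 46.3 on the first component against -2.54, -18.1 and -25.7 for the other 3, and the MB1 log2 fold changes of the members and the MB1 medians of the gene lists are therefore given with and without it. Marker genes differed between the lines, but not all in the direction of the labels. Of 6 oligodendrocyte lineage markers, Sox10 ranged over 171 to 235 TPM in Oli-neu and 0.47 to 0.88 TPM in MB1, and Pdgfra, Cspg4 and Mbp were also higher in Oli-neu alone than in MB1 alone. Olig1 and Olig2 were higher in MB1 alone (Olig2 at 246 and 228 TPM against 64.7 and 76.0 TPM in Oli-neu alone), and the summed level of the 6 was 924 to 1086 TPM in MB1 alone against 578 to 648 TPM in Oli-neu alone. Of the granule lineage and hedgehog markers, Zic1 (63.7 to 125 TPM), Zic2 (22.6 to 30.3 TPM) and the hedgehog target Ptch1 (14.2 to 18.4 TPM) were higher in MB1 than in Oli-neu (at most 0.03, 8.97 and 5.93 TPM). Atoh1 (0 to 0.01 TPM), Barhl1 (0) and the hedgehog target Gli1 (0.08 to 0.18 TPM) were at or near 0 in MB1, and the astroglial transporter gene Slc1a3 stood at 324 to 419 TPM there. In bulk RNA, fewer expressing cells and less RNA per cell cannot be told apart.

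The nuclear lamina is a mesh of intermediate filaments under the inner nuclear membrane. B-type lamins stay attached to the membrane through a permanent farnesyl group, while lamin A loses its own during maturation and lamin C never has one. The lamin B receptor is a multipass membrane protein whose nucleoplasmic part binds B-type lamins and heterochromatin protein 1, and whose membrane part is a sterol reductase of cholesterol synthesis. LBR and A-type lamins are known as the tethers that hold heterochromatin at the nuclear edge, with LBR prominent in immature cells and A-type lamins in many mature ones. The envelope is taken apart at mitosis and rebuilt around the daughter chromosomes, so lamina proteins are also part of the division cycle.

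RefSeq promoter windows (build GRCm38.p6) were read for 8 of the 9 members. Lmnb1 was left out of this reading, so whether it has such elements is not described. The 250 bases before the transcript start are shown for Lbr and Lmnb2, whose levels were lower in each co-culture than in the same line alone, and for Sun2, which shares 2 kinds of element with Lbr. Capitals mark matches, on either strand, to the CCAAT box (CCAAT), to the cell cycle homology region or CHR (TTTGAA), and to the E2F-type run TTCCCGC, or one of its variants (TTGCCGC, then TTGGCGC, then TTCGCGC). None of the marked runs overlap each other.
Lbr, chr1:181842402-181842651, minus strand: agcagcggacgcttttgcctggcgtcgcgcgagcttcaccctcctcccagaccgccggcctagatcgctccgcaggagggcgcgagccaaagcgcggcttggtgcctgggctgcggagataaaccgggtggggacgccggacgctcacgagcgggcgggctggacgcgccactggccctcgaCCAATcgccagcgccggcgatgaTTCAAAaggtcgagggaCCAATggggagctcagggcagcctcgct
Lmnb2, chr10:80918246-80918495, minus strand: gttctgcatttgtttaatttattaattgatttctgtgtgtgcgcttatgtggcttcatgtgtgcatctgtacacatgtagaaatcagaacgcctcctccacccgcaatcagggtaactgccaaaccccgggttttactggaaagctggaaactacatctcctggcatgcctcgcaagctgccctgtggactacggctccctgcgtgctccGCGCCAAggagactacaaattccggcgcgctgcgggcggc
Sun2, chr15:79742537-79742786, minus strand: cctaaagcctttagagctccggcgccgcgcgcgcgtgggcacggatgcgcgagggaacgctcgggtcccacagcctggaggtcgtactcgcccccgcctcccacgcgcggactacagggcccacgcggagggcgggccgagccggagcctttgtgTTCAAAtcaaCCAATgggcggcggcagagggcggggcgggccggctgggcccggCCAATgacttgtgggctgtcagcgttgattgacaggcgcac
The Lbr window holds CCAAT letters at bases 68 to 64 and 28 to 24 before the start, with the CHR letters between them at bases 45 to 40. In the Sun2 window the CHR letters lie at bases 95 to 90 and the CCAAT letters at 85 to 81 and 41 to 37. The Lmnb2 window holds 1 E2F-type match at bases 40 to 34 and neither of the other elements, and a second Lmnb2 window, at another transcript start, holds no match to any of them. Tmpo and Banf1 hold E2F-type matches as well, 2 and 1 in one window each. Sun1 and Tmpo each have 1 window with 2 CCAAT boxes and no CHR, and another Tmpo window holds 1 CHR and no CCAAT box. A single CCAAT box, with no CHR, stood in 1 window each of Lmna, Emd and Banf1 and in the other Sun1 window. In all, 13 windows of the 8 members were read. At least 2 CCAAT boxes together with a CHR stood in 1.53% of the 32851 mouse windows of this length. At least 2 CCAAT boxes stood in 10.1%, a CCAAT box in 33.8%, a CHR in 16.0% and an E2F-type match in 7.89%. These matches are a description of the letters and say nothing of what binds there.

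Among the 9 genes, Lbr had the largest co-culture difference in MB1. In MB1 alone Lbr stood at 29.6 and 27.3 TPM, and in MB1 with Oli-neu at 11.4 and 10.1 TPM. Both co-culture libraries were thus below both libraries of MB1 alone, with a mean of 10.7 ± 0.899 against 28.5 ± 1.65 TPM (SD, n = 2 each), a ratio of 0.377. The log2 fold change of TPM + 1 was -1.33 (SE 0.15), which is the 95th lowest of 12407 genes tested. Without replicate 2 of MB1 alone it was -1.39. Cell type markers also differed in this comparison. The summed level of 4 astrocyte markers was 340 to 375 TPM in MB1 alone and 428 to 436 TPM with Oli-neu. Most of it was Slc1a3 (363 and 324 TPM alone, 419 and 404 TPM with Oli-neu). Of these markers, 3 of 3 tested had a higher mean, 2 without overlap. The 7 granule lineage and hedgehog markers summed to 107 to 126 and 150 to 172 TPM. Zic1 made up most of that sum (84.3 and 63.7 TPM alone, 101 and 125 TPM with Oli-neu). Here 4 of 4 tested had a higher mean, 3 without overlap, while Ptch1 overlapped. Over all genes tested, 10.9% were higher without overlap. Gfap, an astrocyte filament gene, was at 4.17 and 2.67 TPM alone and 6.23 and 9.29 TPM with Oli-neu. The 6 oligodendrocyte lineage markers summed to 630 to 757 TPM with Oli-neu, below the 924 to 1086 TPM of MB1 alone. Most of each sum was Olig1 (655 and 833 TPM alone, 575 and 455 TPM with Oli-neu). Only 4 of the 6 were tested. Of these, 2 had a lower mean, without overlap (Olig1 and Olig2), and 2 a higher mean, with overlap (Cspg4 and Mbp). Among all genes, 41.5% were lower without overlap. Barhl1 was at 0 in both conditions, and the part of these cell type markers in the Lbr difference was not tested.

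Lbr was also lower in both Oli-neu co-cultures, by less. Oli-neu alone had 16.9 and 22.5 TPM, Oli-neu with MB1 13.5 and 15.3 TPM, and Oli-neu with D341 11.0 and 14.8 TPM. Neither co-culture overlapped Oli-neu alone, and the co-cultures overlapped each other. The log2 fold changes against Oli-neu alone were -0.42 (SE 0.21) with MB1 and -0.58 (SE 0.21) with D341; these comparisons share their control libraries. Within replicate numbers 1 and 2 they were -0.31 and -0.53 with MB1 and -0.58 and -0.57 with D341. The 6 oligodendrocyte lineage markers summed to 561 to 661 TPM with MB1, around the 578 to 648 TPM of Oli-neu alone. Of these, 5 had a lower mean on the log2 scale with MB1, all with overlap, and Sox10 was higher without overlap. Over all genes tested, 62.6% had a lower mean with MB1, and 10.1% were higher without overlap. With D341 the 6 markers summed to 508 to 534 TPM, and 5 of 6 were lower without overlap, beside 44.0% of all genes. The part of these markers was not tested. Leaving out replicate 1 or 2 of a group moved the Lbr difference with MB1 between -0.62 and -0.22 and that with D341 between -0.78 and -0.37. Alone, MB1 thus had the higher Lbr level of the 2 lines side by side, and in co-culture its libraries lay near the lowest Oli-neu library.

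**Figure D1:**
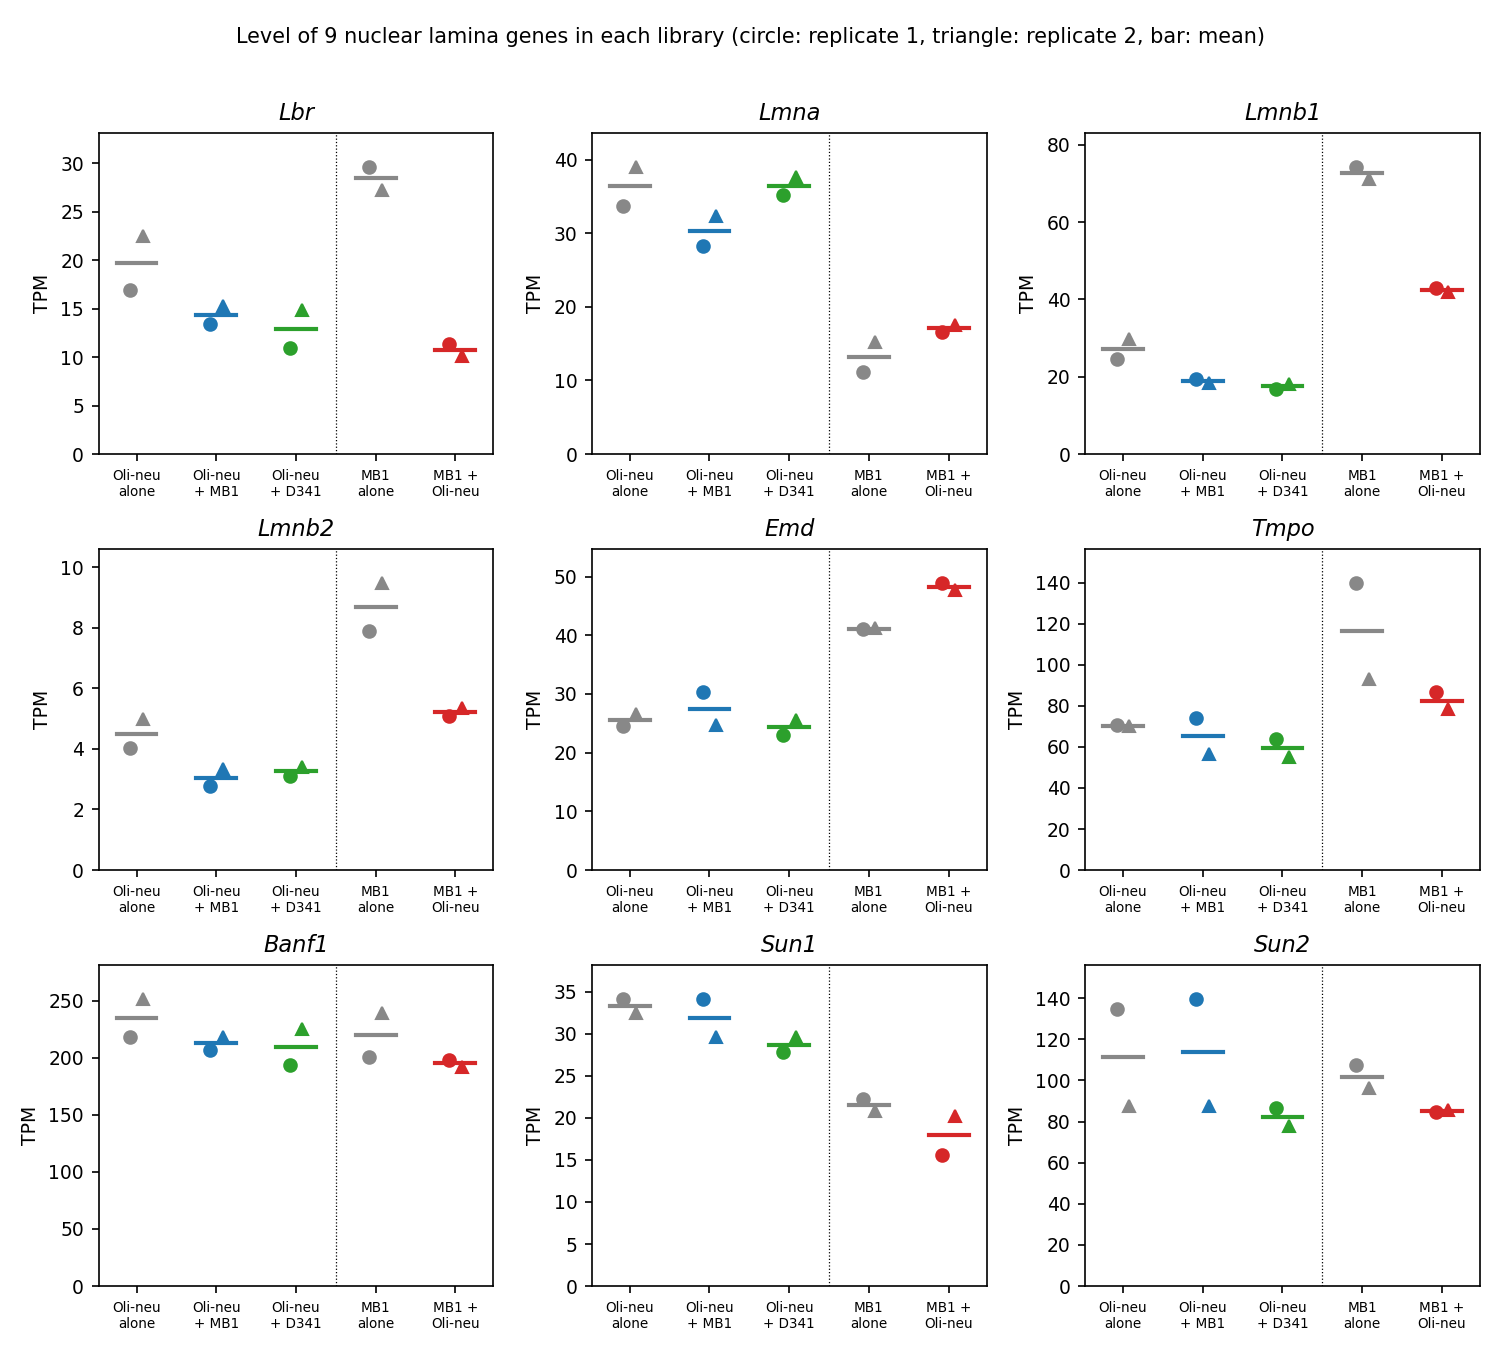
TPM of each of the 9 genes (y axes from 0) in 2 libraries for each of the 5 conditions on the x axis; circles are replicate 1, triangles replicate 2, bars the mean, and the dotted line separates the Oli-neu from the MB1 table. Lbr, Lmnb1 and Lmnb2 are lower in each co-culture than in the same line alone, while Lmna and Emd are higher in MB1 with Oli-neu than in MB1 alone. Emd levels are uncertain because of sequence like that of Eif1.

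The B-type lamin genes were lower in co-culture as well. Lmnb1, which encodes lamin B1, stood at 74.3 and 71.2 TPM in MB1 alone and at 42.8 and 41.9 TPM in MB1 with Oli-neu. Oli-neu alone had 24.7 and 29.7 TPM, Oli-neu with MB1 19.5 and 18.4 TPM, and Oli-neu with D341 16.8 and 18.2 TPM. Every co-culture library was below both libraries of its line alone. The log2 fold changes were -0.77 (SE 0.14) in MB1, -0.49 (SE 0.13) in Oli-neu with MB1 and -0.60 (SE 0.13) in Oli-neu with D341.

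Lmnb2, which encodes lamin B2, was the lowest of the 9 genes in all 5 conditions. Its TPM values were 7.89 and 9.48 in MB1 alone and 5.08 and 5.33 in MB1 with Oli-neu. In Oli-neu they were 4.02 and 4.98 alone, 2.76 and 3.33 with MB1, and 3.12 and 3.40 with D341. None of the 3 co-cultures overlapped its control, with log2 fold changes of -0.64 (SE 0.17), -0.44 (SE 0.14) and -0.36 (SE 0.14) in that order.

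Lbr, Lmnb1 and Lmnb2 were the 3 of 9 members whose libraries lay below the control without overlap in all 3 co-culture comparisons. Among the 11182 genes tested in both tables, 1319 did so (11.8%), and the Oli-neu comparisons share their controls.

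Lmna, which encodes lamins A and C (gene-level values do not separate them), was higher in MB1 with Oli-neu than in MB1 alone. It stood at 11.2 and 15.3 TPM in MB1 alone and at 16.6 and 17.6 TPM in MB1 with Oli-neu, both above both controls, with a log2 fold change of 0.36 (SE 0.20) that ran from 0.15 to 0.57 with one or the other library of MB1 alone left out. In Oli-neu it was at 33.7 and 39.0 TPM alone, 28.3 and 32.3 TPM with MB1, and 35.2 and 37.6 TPM with D341. Oli-neu with MB1 lay below Oli-neu alone (log2 fold change -0.25, SE 0.13), and Oli-neu with D341 overlapped it (0.01, SE 0.13). The 2 Oli-neu co-cultures did not overlap each other, Lmna being higher with D341 by 0.26 on the log2 scale (SE 0.13).

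The makeup of the lamin transcripts differed accordingly. Lmna gave 12.0% and 15.9% of summed lamin TPM in MB1 alone and 25.8% and 27.2% in MB1 with Oli-neu. In Oli-neu the share was 54.1% and 53.0% alone, 56.0% and 59.8% with MB1, and 63.9% and 63.5% with D341. No co-culture overlapped its control, and Lmnb1 was the most abundant lamin gene in each MB1 library while Lmna was in each Oli-neu library. The summed lamin level was 93.3 and 96.0 TPM in MB1 alone against 64.5 and 64.8 TPM in co-culture, and 62.4 and 73.6 TPM in Oli-neu alone against 50.6 to 59.3 TPM in its 4 co-culture libraries.

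Ratios within a library do not depend on the scaling of the library. Lbr over Lmna was 2.65 and 1.79 in MB1 alone and 0.683 and 0.573 in MB1 with Oli-neu. It was 0.501 and 0.578 in Oli-neu alone, 0.475 and 0.473 with MB1, and 0.311 and 0.395 with D341. MB1 alone was therefore the one mouse condition with more Lbr than Lmna transcript per length, and its co-culture ratios lay near those of Oli-neu alone. Lbr over Lmnb1 was 0.399 and 0.383 in MB1 alone and 0.265 and 0.241 in co-culture, so Lbr was lower in relation to Lmnb1 as well. In Oli-neu that last ratio overlapped between conditions, at 0.654 to 0.832 over the 6 libraries.

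**Figure D2:**
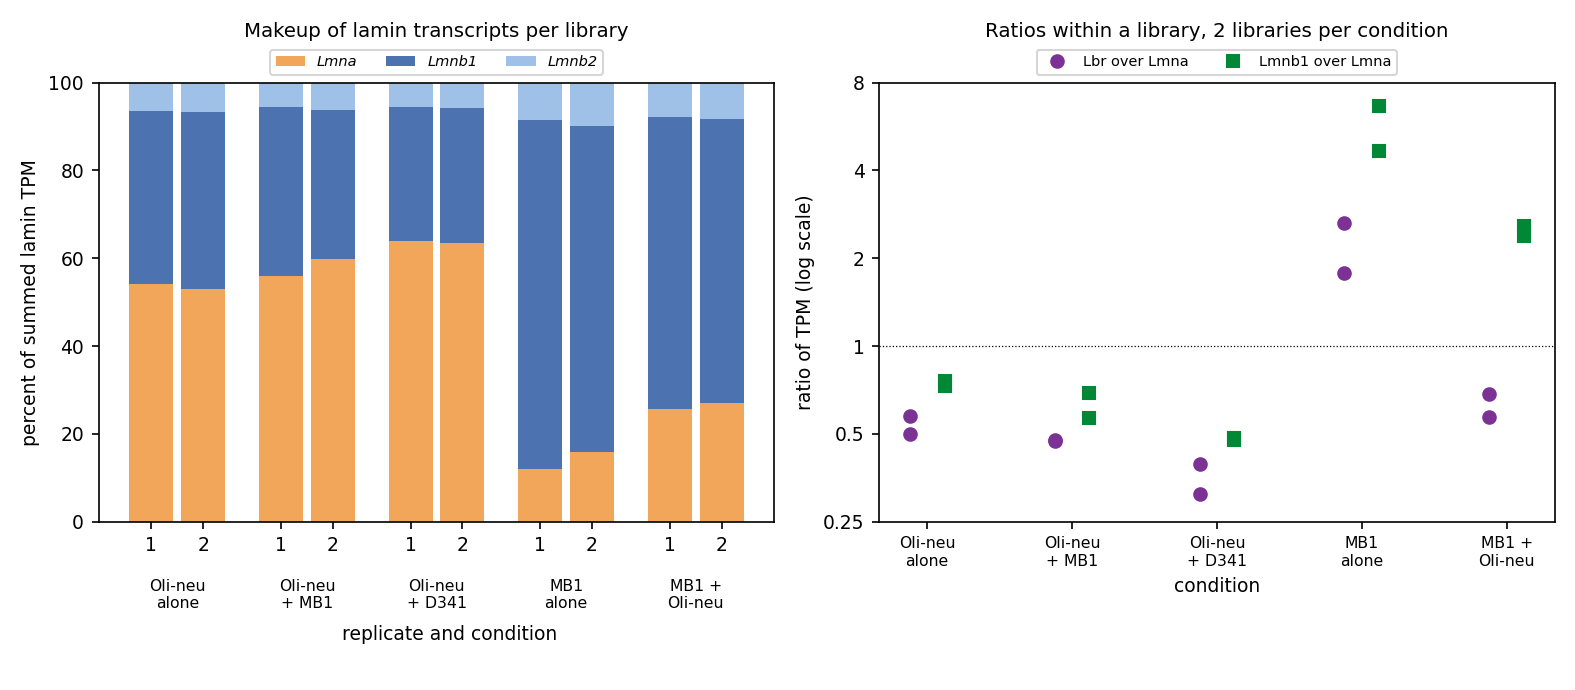
Left, share of Lmna, Lmnb1 and Lmnb2 in summed lamin TPM (percent, y axis) for replicates 1 and 2 of each condition (x axis); right, Lbr over Lmna and Lmnb1 over Lmna within each library (log axis). The Lmna share in MB1 goes from 12.0% and 15.9% alone to 25.8% and 27.2% with Oli-neu, and Lbr over Lmna crosses 1 there.

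The LEM-domain proteins link the lamina to chromatin through the barrier-to-autointegration factor, the product of Banf1. Tmpo, which encodes the LAP2 proteins (its isoforms are not separated here), stood at 139.9 and 93.2 TPM in MB1 alone and 86.5 and 78.7 TPM in MB1 with Oli-neu. The groups did not overlap, but replicates of MB1 alone differed by more than the gap between replicate 2 and the co-culture. The log2 fold change was -0.46 (SE 0.24), -0.75 without replicate 2 of MB1 alone and -0.17 without replicate 1, so its size depends on which control library is kept. In Oli-neu, Tmpo was at 70.7 and 70.1 TPM alone, 74.1 and 56.4 TPM with MB1, and 63.9 and 55.0 TPM with D341. Oli-neu with D341 lay below Oli-neu alone (-0.24, SE 0.17), and Oli-neu with MB1 had one library on either side of it (-0.12, SE 0.17).

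Emd, which encodes emerin, was at 41.1 and 41.2 TPM in MB1 alone and 48.9 and 47.7 TPM in MB1 with Oli-neu. Both co-culture libraries were above both controls (log2 fold change 0.23, SE 0.14), as for Lmna, whose protein holds emerin at the inner membrane. In Oli-neu, Emd was at 24.6 and 26.7 TPM alone, 30.3 and 24.6 TPM with MB1, and 23.0 and 25.6 TPM with D341, with overlap in both comparisons. Emd levels are uncertain, since an annotated Emd transcript contains Gm14686, a pseudogene on the same strand, and aligned to the translation factor gene Eif1 at 96.7% identity over 662 bases. Eif1 was at 1460 to 2576 TPM in these libraries, and how reads were divided between them was not tested.

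Banf1 had the highest level of the 9 genes in all 5 conditions and varied little. It was at 201 and 239 TPM in MB1 alone and 198 and 192 TPM in MB1 with Oli-neu (log2 fold change -0.17, SE 0.16). The co-culture lay just below the controls, by less than the gap between the controls. In Oli-neu it was at 218 and 252 TPM alone, 207 and 219 TPM with MB1, and 194 and 226 TPM with D341, and both co-cultures overlapped Oli-neu alone. Within replicate numbers 1 and 2, Banf1 was nonetheless lower in both co-cultures, with log2 differences of -0.07 and -0.20 with MB1 and -0.17 and -0.16 with D341. Banf1 shares 428 bases with Eif1ad on the opposite strand, which was at 9.24 to 16.8 TPM.

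SUN proteins span the inner membrane and couple the lamina to the cytoskeleton through nesprins. Sun1 was at 22.3 and 20.8 TPM in MB1 alone and 15.6 and 20.3 TPM in MB1 with Oli-neu, without overlap (log2 fold change -0.26, SE 0.18). In Oli-neu it was at 34.1 and 32.5 TPM alone, 34.1 and 29.6 TPM with MB1, and 27.8 and 29.6 TPM with D341. Oli-neu with D341 lay below Oli-neu alone (-0.21, SE 0.12), while Oli-neu with MB1 overlapped it (-0.06, SE 0.12).

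Sun2 was at 107.6 and 96.3 TPM in MB1 alone and 84.7 and 85.4 TPM in MB1 with Oli-neu, without overlap (log2 fold change -0.26, SE 0.15). In Oli-neu it was at 135 and 87.6 TPM alone, 140 and 87.8 TPM with MB1, and 86.7 and 77.7 TPM with D341. Its level followed the replicate number in those cultures, replicate 1 being the higher in every Oli-neu condition. Oli-neu with D341 lay below Oli-neu alone (-0.40, SE 0.31) by little more than the SE, and Oli-neu with MB1 was at 0.03 (SE 0.31). Sun2 exceeded Sun1 in every mouse library, by 2.63 to 5.44 times.

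**Figure D3:**
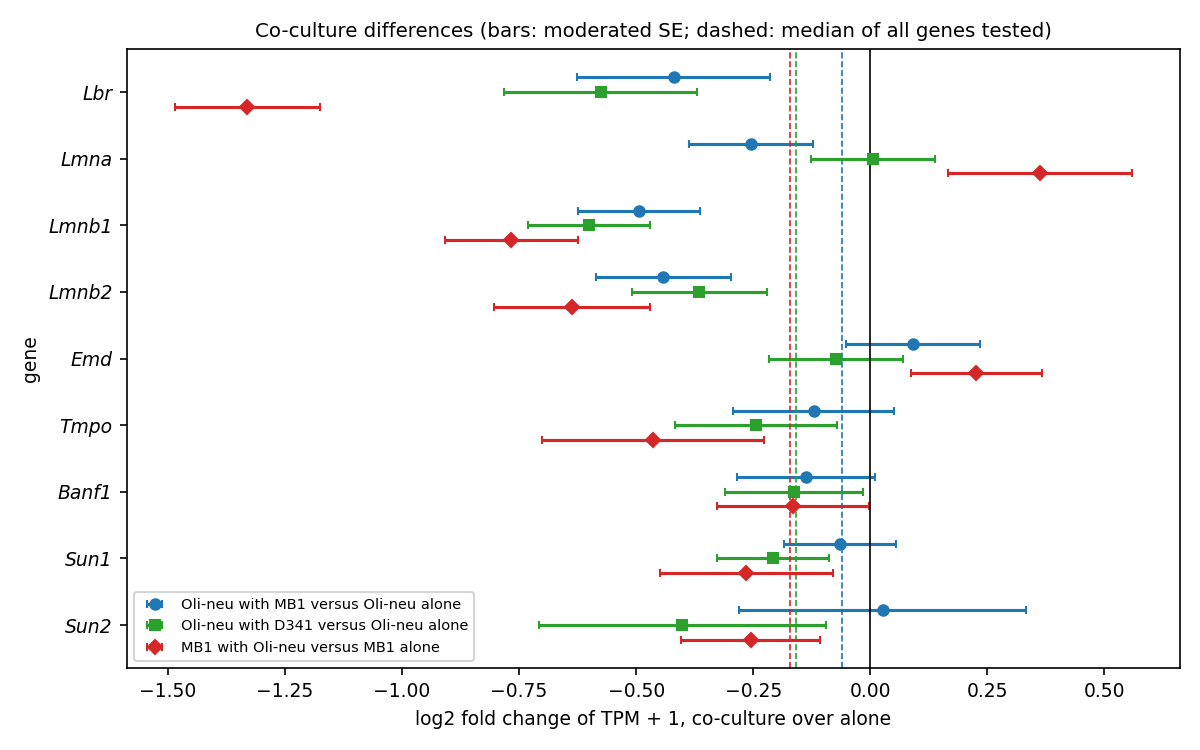
log2 fold change of TPM + 1 (x axis) of the 9 genes (y axis) for each line in co-culture over the same line alone; bars are the moderated SE from limma and dashed lines the median of all genes tested. Lbr in MB1 is at -1.33, and Lmna and Emd lie above 0 in MB1 at 0.36 and 0.23, the Emd level being uncertain.

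None of the 9 genes passed an adjusted p of 0.05 in limma in any of the 4 comparisons (0 of 9), and no gene of the tables did (0.0% of 12280 genes in each Oli-neu comparison and 0.0% of 12407 in MB1). At an unadjusted p under 0.05 the counts over all genes were 1944 in MB1 with Oli-neu against alone (15.7%), 747 in Oli-neu with MB1 against alone (6.08%), 1684 in Oli-neu with D341 against alone (13.7%) and 629 between the 2 Oli-neu co-cultures (5.12%). In MB1, 7 members were lower and 2 higher with no overlap, beside 41.5% of all genes lower and 10.9% higher in that way. Without replicate 2 of MB1 alone, the MB1 log2 fold changes were -0.80 for Lmnb1, -0.52 for Lmnb2, 0.57 for Lmna, 0.23 for Emd, -0.04 for Banf1, -0.31 for Sun1 and -0.33 for Sun2. Without replicate 1 instead, Banf1 was at -0.29. In Oli-neu with MB1, 4 members were lower without overlap and none higher, beside 24.0% and 10.1% of genes. In Oli-neu with D341, 6 were lower and none higher, beside 44.0% and 7.12%. Between the Oli-neu co-cultures, 3 were lower with D341 (Lmnb1, Sun1 and Sun2) and 1 higher (Lmna), beside 28.8% and 6.6%.

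The median of all genes was itself below 0, at -0.17 in MB1, -0.16 in Oli-neu with D341, -0.06 in Oli-neu with MB1 and -0.09 between the Oli-neu co-cultures. The median over the 9 members was -0.26, -0.24, -0.14 and -0.12 in the same order. A lower mean was found for 7, 8, 7 and 7 of the 9, beside 70.9%, 75.8%, 62.6% and 68.5% of all genes tested. Scaled to the median gene, the Lbr differences were -1.15 in MB1, -0.40 in Oli-neu with D341 and -0.35 in Oli-neu with MB1, and Lmnb1 was at -0.58, -0.42 and -0.42. On that scale Lmna was at 0.54 and Emd at 0.41 in MB1, and Lmna at 0.19 in Oli-neu with D341. Small differences changed sign on it: Banf1 was at 0.02 in MB1 and 0.02 in Oli-neu with D341, Emd at 0.11 in Oli-neu with D341, Sun1 at 0.00 in Oli-neu with MB1, and Banf1 and Lmnb1 at 0.09 and 0.00 between the Oli-neu co-cultures. Some differences without overlap came near 0 under alternatives that left out no replicate. Their highest values were -0.08 for Sun1 and -0.07 for Sun2 in MB1. In Oli-neu with D341 they were -0.03 for Sun1 and -0.06 for Tmpo. Tmpo in MB1 and Sun2 in Oli-neu with D341 stayed at or below -0.275 and -0.216. In the main fit, 37.6% and 38.8% of genes were as low as Sun1 and Sun2 in MB1, or lower.

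The order of the 9 levels differed between the lines. In Oli-neu alone it ran Banf1, Sun2, Tmpo, Lmna, Sun1, Lmnb1, Emd, Lbr and Lmnb2, and the neighbours Lmna and Sun1, and Lmnb1 and Emd, overlapped. In MB1 alone it ran Banf1, Tmpo, Sun2, Lmnb1, Emd, Lbr, Sun1, Lmna and Lmnb2, with overlap between Tmpo and Sun2. Oli-neu with D341 kept the order of Oli-neu alone but for Emd above Lmnb1, and no neighbours overlapped. With MB1, Sun1 stood above Lmna and Emd above Lmnb1, and Sun1, Lmna and Emd overlapped in that order. In MB1 with Oli-neu, Lbr stood in the eighth place and not the sixth, below Sun1 and Lmna, and Emd stood above Lmnb1 without overlap, while Sun2 and Tmpo, and Sun1 and Lmna, overlapped.

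The genes most like Lbr over the 10 libraries were found by the root mean square difference in log2(TPM + 1), each line centred on its own mean, among 7089 protein-coding genes. The nearest were Heatr3 (0.171), 2410002F23Rik (0.190), Myt1 (0.197), Noc4l (0.197) and Exosc2 (0.201), against a median of 0.453 over all genes compared. Lmnb1 was the 7th nearest (0.204). Tmpo came 1322nd, Banf1 2089th, Sun1 2162nd, Sun2 4578th, Emd 5760th and Lmna 6297th, and Lmnb2 was below the level needed. The likeness describes these libraries and rests largely on the step between MB1 alone and MB1 with Oli-neu, where Heatr3 was at 12.7 and 11.4 against 5.62 and 4.96 TPM.

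Other genes of the nuclear envelope were read from lists, and none of their members passed the adjusted threshold in any comparison. Their counts of lower means stand beside 70.9% of all genes in MB1 with Oli-neu, 62.6% in Oli-neu with MB1 and 75.8% in Oli-neu with D341, and their counts of lower genes without overlap beside 41.5%, 24.0% and 44.0%. A list for the inner nuclear membrane held 12 further genes, not all with products in that membrane. Of these, 10 had a lower mean in MB1 with Oli-neu (median -0.30), 9 in Oli-neu with MB1 (-0.07) and 10 in Oli-neu with D341 (-0.17). Ankle1, a LEM-domain endonuclease, was at 7.76 and 8.19 TPM in MB1 alone and 3.74 and 4.70 TPM in co-culture (log2 fold change -0.79, SE 0.17), and at 2.40 and 3.43 TPM in Oli-neu alone against 1.18 and 1.48 with MB1 and 1.72 and 0.960 with D341. Tor1a, the torsin ATPase of the envelope lumen, was higher in both Oli-neu co-cultures without overlap (0.39, SE 0.14 in each) and overlapped in MB1 (-0.03, SE 0.23). Its close relative Tor1b had log2 fold changes of -0.41 in MB1, -0.13 in Oli-neu with MB1 and -0.36 in Oli-neu with D341.

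Of 7 genes for nesprins and other SUN proteins, 4 passed the filter on low values, and 3 of these had a lower mean in MB1 with Oli-neu. Syne2, a giant nesprin, was at 6.47 and 5.52 TPM in MB1 alone and 2.61 and 3.38 TPM in co-culture (-0.81, SE 0.19), while its Oli-neu libraries overlapped. Syne4 was at -0.68 (SE 0.22) and Spag4 at -0.12 (SE 0.20) in MB1. The 5 genes of lamin farnesylation and cleavage varied less, with medians of -0.15, 0.03 and -0.16 in MB1, Oli-neu with MB1 and Oli-neu with D341. Zmpste24, the protease that matures prelamin A, was at 17.5 and 11.5 TPM in MB1 alone and 13.2 and 12.1 TPM in co-culture, with overlap. Fntb, a farnesyltransferase subunit, and Rce1, the CAAX protease, were at -0.23 and -0.26 there.

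Of 29 nuclear pore genes, 28 were tested, and 26 had a lower mean in MB1 with Oli-neu (92.9%, median -0.42), with 19 lower without overlap (67.9%, against 41.5% of all genes). In Oli-neu with MB1, 15 had a lower mean (53.6%, median -0.05), a smaller share than the 62.6% of all genes, and in Oli-neu with D341 23 did (82.1%, median -0.13). Nup107, of the outer ring scaffold, was at 25.4 and 25.1 TPM in MB1 alone and 12.9 and 14.5 TPM in co-culture (-0.84, SE 0.15), but differed little in Oli-neu (-0.09 with MB1 and -0.10 with D341). Nup35 and Nup43 were at -0.80 and -0.70 in MB1. The median of the pore genes thus lay further below 0 in MB1 than in Oli-neu, and that contrast was not tested.

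Among 10 genes for heterochromatin proteins and enzymes, 9 had a lower mean in MB1 with Oli-neu (median -0.35), 10 in Oli-neu with MB1 (-0.12) and 9 in Oli-neu with D341 (-0.21). Cbx5, which encodes the heterochromatin protein 1 alpha that LBR binds, was at 26.9 and 27.7 TPM in Oli-neu alone, 23.7 and 19.5 TPM with MB1 and 14.9 and 15.7 TPM with D341. None of these 3 conditions overlapped (log2 fold changes against alone -0.33 and -0.79, SE 0.13 each). In MB1 it was at 44.5 and 38.8 TPM alone and 31.6 and 33.4 TPM in co-culture (-0.34, SE 0.16). Cbx3 and the histone methyltransferase gene Suv39h2 were at -0.56 and -0.68 in MB1.

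LBR is also an enzyme of cholesterol synthesis, and 11 late genes of that pathway from Sqle on were read beside it. All 11 had a lower mean in MB1 with Oli-neu (median -0.59), in Oli-neu with MB1 (-0.26) and in Oli-neu with D341 (-0.39). Lower without overlap were 10 (90.9%, against 41.5% of all genes), 3 (27.3%, near the 24.0% of all genes) and 9 (81.8%, against 44.0%) in that order. Dhcr7, a late sterol reductase gene, was at 285 and 348 TPM in MB1 alone and 181 and 154 TPM in co-culture (-0.91, SE 0.19). Ebp, which encodes a sterol isomerase, was at -0.58. Tm7sf2, named for its activity since it encodes the other sterol reductase that carries out the step of LBR, was at 36.1 and 60.0 TPM in MB1 alone and 35.3 and 23.8 TPM in co-culture (-0.66, SE 0.32), below without overlap but with a gap to its nearest control smaller than either replicate spread. In each of the 10 mouse libraries the Tm7sf2 level was above that of Lbr.

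Envelope breakdown and proliferation genes had mostly lower means in co-culture, as Lbr, the B-type lamins and most genes tested had. Of 12 genes of mitotic envelope breakdown and reassembly, 10 had a lower mean in MB1 with Oli-neu (median -0.38), 9 in Oli-neu with MB1 (-0.26) and 11 in Oli-neu with D341 (-0.30). These are 83.3%, 75% and 91.7%, beside 70.9%, 62.6% and 75.8% of all genes. In MB1, 8 were lower without overlap (66.7%, beside 41.5% of all genes) and 2 higher, beside 10.9%. The 2, named after their values were seen, were Chmp2a (129 and 128 TPM alone, 131 and 168 TPM in co-culture) and Chmp4b (87.4 and 94.7 TPM, then 105 and 114 TPM). Rcc1, the chromatin-bound exchange factor for Ran, was at 20.9 and 24.2 TPM in MB1 alone and 11.5 and 11.9 TPM in co-culture (-0.89, SE 0.16). Vrk1, the kinase that releases the Banf1 product from DNA, was at 12.5 and 12.0 TPM in Oli-neu alone, 8.33 and 8.11 TPM with MB1 and 9.92 and 8.50 TPM with D341. Its log2 fold changes were -0.52 and -0.38 there and -0.50 in MB1, and the mitotic kinase gene Plk1 was at -0.78 in MB1.

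All 12 proliferation genes had a lower mean in each of the 3 co-cultures against alone (medians -0.69 in MB1, -0.48 in Oli-neu with MB1 and -0.43 in Oli-neu with D341); Cdk1 and Ccnb1 stand in both of these lists. Lower without overlap were 10, 8 and 10 of the 12, against 41.5%, 24.0% and 44.0% of all genes, and Mki67, which encodes a proliferation antigen and is named after its values were seen, overlapped its control in each (20.5 and 17.2 TPM in Oli-neu alone, 21.2 and 12.8 TPM with MB1). Their summed level was 1008 to 1226 TPM in MB1 alone and 724 to 744 TPM with Oli-neu, and 692 to 776 TPM in Oli-neu alone, 485 to 620 TPM with MB1 and 562 to 612 TPM with D341. Tyms, of thymidylate synthesis, was at 32.1 and 28.2 TPM in MB1 alone and 12.1 and 14.4 TPM in co-culture (-1.13, SE 0.17). Mcm6 and Mcm3, of the replicative helicase, were at -0.77 and -0.76. Against alone, means of the proliferation genes were thus lower where those of Lbr, Lmnb1 and Lmnb2 were. Between the Oli-neu co-cultures, 5 of the 12 had a lower mean with D341 (41.7%, against 68.5% of all genes, median 0.08). Without overlap, 4 were higher and 1 lower, beside 6.6% and 28.8% of all genes. There Lbr was at -0.16, Lmnb1 at -0.11 and Lmnb2 at 0.08. The part of the proliferation genes in the differences of Lbr, Lmnb1 and Lmnb2 was not tested.

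Without replicate 2 of MB1 alone, the MB1 medians were -0.27 for the inner membrane list, -0.50 for nesprins and SUN proteins, -0.19 for lamin processing, -0.61 for the pore, -0.42 for heterochromatin, -0.59 for cholesterol synthesis, -0.35 for envelope breakdown and -0.76 for proliferation, beside -0.18 for all genes tested. Lower means then numbered 8 of 12, 3 of 4, 4 of 5, 26 of 28, 9 of 10, 11 of 11, 9 of 12 and 12 of 12, beside 69.6% of all genes. Several of the list genes named above moved by over 1.5 times. Tor1a went to -0.30, Zmpste24 to -0.43, Rce1 to -0.03, Tm7sf2 to -0.31 and Ran to -0.47. Ccnb1 went from -0.39 to -0.61 and Mki67 from -0.70 to -1.15.

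**Figure D4:**
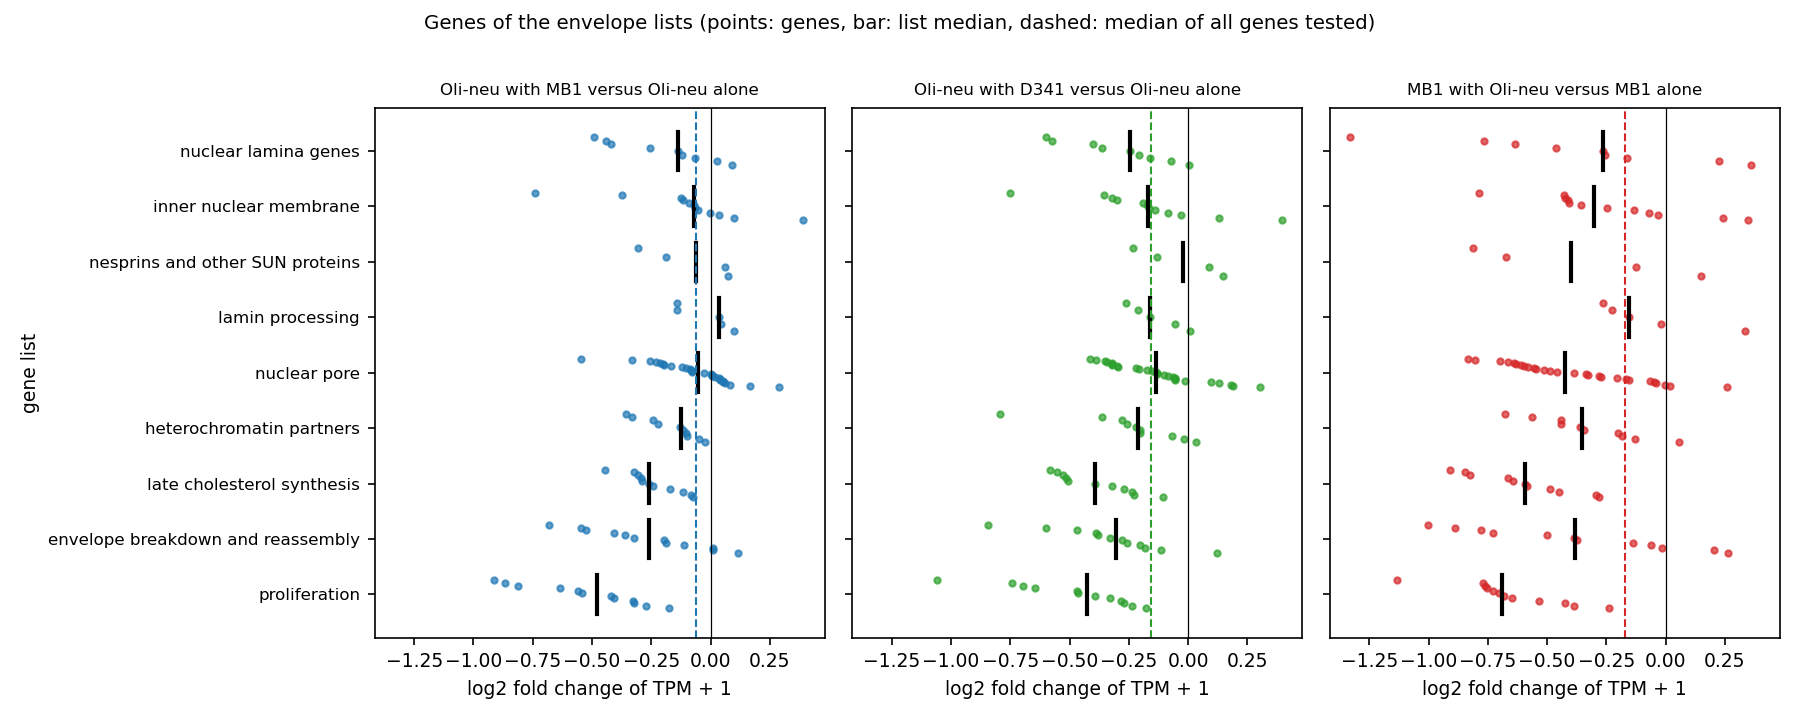
log2 fold change of TPM + 1 (x axis) of the tested genes of each list (y axis) in the 3 co-culture comparisons; points are genes, black bars list medians and dashed lines the median of all genes tested. In MB1 the proliferation and cholesterol lists have medians of -0.69 and -0.59, below the all-gene median of -0.17.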

How the data were processed

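Per the submitters' processing notes, Salmon 0.14.1 was among the tools listed, beside DESeq2 1.22.2, FastQC 0.11.8 and MultiQC 1.7, and the builds listed are GRCm38 and GRCh38, with no roles. Their settings, the annotation release and the use of strand are not given in the sources used here. The authors deposited gene-level TPM values, each column summing to 1000000, so no count test was run. The library kit was directional, per the labels. Symbols were matched for 35028 of 35288 identifiers. The human D341 table was not used here.

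A gene entered the fit when 2 or more libraries of its table reached 1 TPM, which left 12280 for Oli-neu, 12407 for MB1 and all 9 members for both. Differences were fitted by limma 3.58.1 with trend on log2(TPM + 1) in R 4.3.3, two-sided, with Benjamini-Hochberg adjustment over all genes and a threshold of 0.05. A fold change on this scale understates differences of low genes. The 6 Oli-neu libraries shared 1 fit, and the 4 MB1 libraries another. Members and lists were chosen with earlier results of these data known. All members are named, and from each list the 3 genes with the smallest p over the comparisons, and the 5 genes most like Lbr. Copies were sought with BLAST+ 2.17.0 (at least 95% identity over 200 bases). Alternatives changed the pseudocount, filter, scaling, variance model, covariates, libraries in the fit and each library in turn; the MB1 lists without replicate 2 of MB1 alone were added after seeing the data. The values of 1 gene that the naming rule takes are not reported here.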

Additional observations from a re-analysis of the deposited data

Results flagged for a closer look

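Lmna differed from its control in opposite directions on the sides of one co-culture, though neither difference passed the adjusted threshold. Its log2 fold change was -0.25 in Oli-neu with MB1 against Oli-neu alone and 0.36 in MB1 with Oli-neu against MB1 alone, with both libraries below and both above their controls. The MB1 value ran from 0.15 to 0.57 with one or the other library of MB1 alone left out. The difference between these values was not tested, since the tables were made separately.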

How the results depend on the processing

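No member passed the threshold under any alternative. Of 537 member values under alternatives, 500 moved by less than 1 SD of the fit and 37 by more. The number of genes called, 0 in each comparison, moved under some settings. For Oli-neu with MB1 against alone it was 3 at a pseudocount of 0.1 TPM, 1 without a filter, 2 with median-ratio scaling, 1 without the trend and 2 with protein-coding genes alone (an alternative chosen after seeing the data). For Oli-neu with D341 against alone it was 3 without a filter, 1 with protein-coding genes alone and 0 to 2 when leaving out a library, with 2 without replicate 2 of Oli-neu with D341. Between the Oli-neu co-cultures it was 6 without a filter, 1 without the trend, 1 with protein-coding genes alone and 0 to 3 when leaving out a library, with 3 without that same one. For MB1 it was 9 with the robust fit, 5 with protein-coding genes alone and 1 to 112 when leaving out a library: 112 without replicate 1 of MB1 alone, 1 without its replicate 2, and 2 and 1 without replicates 1 and 2 of MB1 with Oli-neu. Where a group keeps 1 library, that library is assumed to vary like the other groups. The causes of these moves were not tested.

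With a replicate block, 0 genes and 0 members were called in every comparison. In Oli-neu, the replicate 1 minus 2 differences of the 3 conditions correlated over genes at 0.593 to 0.618, as a hint from the data, since no source says what a number shares. In MB1 that correlation was -0.115, and crossed numbers also gave 0 genes called. Every SE given here is from the fit without a replicate block. In Oli-neu it therefore includes any offset shared by a replicate number across conditions. With 2 libraries a condition and unknown depth, differences of the size seen in the smaller members cannot be told from replicate spread.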
